A study of Mus musculus with 29 samples.

Results

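The 40 genes described here encode proteins of DNA replication and cell division, and their RNA was followed in subcutaneous white fat of mice of both sexes. They were taken by symbol from a fixed list, which was chosen with earlier results of these data known. They belong to 6 roles: replication licensing and forks (7 genes), nucleotide supply (4), chromosome structure and cell cycle markers (5), mitotic kinases and cyclins (9), checkpoint, kinetochore and anaphase-promoting complex (7), and spindle motors and cytokinesis (8). All 40 were among the 17536 genes present in both deposited tables of FPKM, a level scaled to gene length and to the reads of the library. Of these, 37 reached 1 FPKM in at least 3 mice and were tested together with 13174 genes in all, and Bub1, Cenpe and Cenpf stayed below that limit.

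RNA was sequenced in mice lacking Ncoa1, which encodes a coactivator of nuclear receptors (KO), and in wild-type mice (WT), each of both sexes. Mice received CL316,243 (CL), which activates the β3-adrenergic receptor of adipocytes, for 7 days at 0.5 mg/kg by intraperitoneal injection, or saline (NaCl). The 8 groups held 4 mice each in male KO CL, female WT CL, male WT CL and male WT NaCl, 3 each in female KO CL, female KO NaCl and male KO NaCl, and 2 in female WT NaCl. The records of female WT NaCl replicate 2 and male KO NaCl replicate 4 matched no column name and were not analysed under their own names. Both groups also hold a repeated column name with different values, described below, and these columns may include the unmatched records. The age of the mice, how the knockout was made and whether mice were pooled were not stated in the sources used here. Where nothing says that libraries came from separate mice, p-values measure the spread between libraries.

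Cells copy their DNA in S phase and divide in M phase, and most of these genes are transcribed in waves that follow this cycle. The licensing and nucleotide genes are known to be driven by E2F factors at the entry to S phase, and the mitotic genes by the MuvB complex with B-MYB and FOXM1 in G2 and M phase. Adipocytes of adult fat rarely divide, so these transcripts are commonly read as a sign of dividing progenitors, endothelial cells or immune cells. In whole tissue, a smaller share of dividing cells and less RNA per dividing cell cannot be told apart.

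The promoters of a member of each role are shown as examples, since the members that passed with CL in WT males, described below, ran from 0 of 7 licensing genes to 5 of 8 spindle genes. The change was not tested between roles. For 5 roles the member is the one with the smallest p in the CL effect of WT males, and Mcm5 stands for the licensing role, in which no member passed. RefSeq (GRCm38.p6) held promoter windows, from 250 bases before to 50 bases after the transcription start, for 33 of the 40 genes (35 windows). The first 265 bases are printed, 5′ to 3′ on the gene's strand. Capitals mark, on either strand, TTTGAA (the core of the cell cycle homology region bound by MuvB), CCAAT (bound by NF-Y) and TTTNGCGC (an E2F site).
Prc1: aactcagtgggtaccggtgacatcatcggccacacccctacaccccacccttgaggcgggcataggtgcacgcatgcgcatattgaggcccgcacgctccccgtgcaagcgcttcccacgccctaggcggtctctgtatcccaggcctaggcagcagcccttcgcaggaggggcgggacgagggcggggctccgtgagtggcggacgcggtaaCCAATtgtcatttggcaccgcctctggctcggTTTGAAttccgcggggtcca
Rrm2: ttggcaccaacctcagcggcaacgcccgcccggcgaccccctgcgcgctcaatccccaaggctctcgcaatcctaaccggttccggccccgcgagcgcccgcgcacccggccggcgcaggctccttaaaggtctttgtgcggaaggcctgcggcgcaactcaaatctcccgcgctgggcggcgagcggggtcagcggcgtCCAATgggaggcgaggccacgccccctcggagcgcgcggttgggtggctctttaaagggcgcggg
Ccnb1: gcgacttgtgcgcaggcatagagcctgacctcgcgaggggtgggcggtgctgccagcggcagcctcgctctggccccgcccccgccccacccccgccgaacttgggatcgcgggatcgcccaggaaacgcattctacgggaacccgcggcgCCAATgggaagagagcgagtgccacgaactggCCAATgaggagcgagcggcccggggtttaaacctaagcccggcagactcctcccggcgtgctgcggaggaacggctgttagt
Mki67: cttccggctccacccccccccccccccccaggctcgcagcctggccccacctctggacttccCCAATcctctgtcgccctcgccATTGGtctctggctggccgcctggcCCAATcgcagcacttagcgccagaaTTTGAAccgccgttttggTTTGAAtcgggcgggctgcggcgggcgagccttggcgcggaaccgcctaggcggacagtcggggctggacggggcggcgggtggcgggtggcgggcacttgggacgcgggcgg
Bub1b: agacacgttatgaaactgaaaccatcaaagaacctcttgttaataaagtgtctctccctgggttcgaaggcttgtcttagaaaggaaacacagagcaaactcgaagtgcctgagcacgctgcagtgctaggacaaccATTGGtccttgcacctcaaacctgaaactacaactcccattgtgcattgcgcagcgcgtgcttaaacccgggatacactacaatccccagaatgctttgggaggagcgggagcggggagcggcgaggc
Mcm5: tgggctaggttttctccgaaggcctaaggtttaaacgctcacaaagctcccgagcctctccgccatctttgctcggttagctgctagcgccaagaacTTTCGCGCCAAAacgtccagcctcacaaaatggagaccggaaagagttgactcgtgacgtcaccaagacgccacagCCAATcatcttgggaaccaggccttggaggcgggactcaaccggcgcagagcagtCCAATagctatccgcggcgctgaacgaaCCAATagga

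These windows lie at chr7:80294201-80294465 (Prc1, plus strand), chr12:24708004-24708268 (Rrm2, plus), chr13:100786472-100786736 (Ccnb1, minus), chr7:135716365-135716629 (Mki67, minus), chr2:118597961-118598225 (Bub1b, plus) and chr8:75109259-75109523 (Mcm5, plus). In Prc1, CCAAT begins 37 bases and TTTGAA 5 bases before the start, so TTTGAA runs across it. Mki67 holds TTTGAA at 116 and 98 bases before the start, with CCAAT letters at 188, 166 and 141 bases before it. Bub1b holds TTTGAA 40 bases after the start, beyond the printed stretch. In Mcm5, TTTNGCGC occurs on both strands from 153 and 149 bases before the start, and these matches overlap each other. The Rrm2 and Ccnb1 windows hold CCAAT and neither of the other motifs.

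Over both strands, TTTGAA occurred in 57.1% of the 35 member windows, against 17.9% of all 32851 promoters of the same length. CCAAT occurred in 85.7% of the member windows, against 37.4% of all promoters, and TTTNGCGC in 17.1%, against 1.38%. Windows with both TTTGAA and CCAAT made up 54.3% of the member windows and 6.95% of all promoters. By role, TTTGAA was in 6 of 7 windows of the spindle and cytokinesis genes, 5 of 7 of the mitotic kinases and cyclins, 5 of 7 of the checkpoint genes and 3 of 3 of the chromosome genes, but in 1 of 7 of the licensing genes and 0 of 4 of the nucleotide genes. TTTNGCGC was in 4 of 7 windows of the licensing genes (Mcm3, Mcm5, Mcm6 and 1 of 2 windows of Mcm7), but in 0 of 4 of the nucleotide genes. It was also in 1 of 7 windows of the mitotic kinases and cyclins (Cdk1) and 1 of 7 of the spindle and cytokinesis genes (Racgap1). A match describes these letters and is not a binding site shown in this fat.

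The FPKM of a library summed to between 563255 and 707161, and the files give no read counts, so the depth is unknown. Ncoa1 itself was at 1.47 to 2.9 FPKM in the KO columns and at 4.93 to 9.16 FPKM in the WT columns, and the Y-linked genes followed the sex labels. The 2 tables were made separately and hold 24 and 5 columns. The column names of female WT NaCl replicate 3 and male KO NaCl replicate 3 occur in both, with different values. Columns of a repeated name were averaged as 1 mouse, which leaves 27 mice, and the fit carries the table as a covariate. All 5 second-table columns are of NaCl groups, so this covariate rests on NaCl libraries alone. Table and treatment are thus partly confounded in the CL effects of KO males and of females. Table and genotype are likewise partly confounded in the comparisons of KO with WT under NaCl. The interaction tests draw on the same NaCl groups. Whether columns of a repeated name hold 1 mouse or 2, and whether they include the records without a column name, is not stated in the sources used here. The averaged values and n of female WT NaCl and male KO NaCl therefore rest on averaging them as 1 mouse. With each column as its own mouse, 4 members rose in KO males, 12 rose in WT males and 1 fell in WT females with CL. The first-table column of female WT NaCl replicate 3 was the highest of all 29 columns for 36 of the 40 genes. Its second-table column was not the highest for any of them and had 14859.87 FPKM of the milk protein gene Csn2, against 0.25 FPKM in the first-table column. The female results below are therefore given with each column. Skeletal muscle genes were high in female KO NaCl replicate 2, male WT CL replicate 4, male KO NaCl replicate 1 and male KO CL replicate 4.

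Levels differed widely among the 40 genes. Pcna, the sliding clamp of DNA polymerases, had the highest FPKM (37.76 to 73.84 over the 29 columns), followed by Hmgb2, a chromatin protein, at 14.27 to 63.46 FPKM and Stmn1, a tubulin-binding protein, at 7.2 to 59.83 FPKM. Mcm7, a subunit of the replicative helicase, ranged from 8.41 to 21.35 FPKM. The 3 untested genes were at low levels throughout. Bub1, a checkpoint kinase, ranged from 0.06 to 0.89 FPKM, Cenpe, a kinetochore motor, from 0.08 to 0.8 FPKM and Cenpf, a kinetochore protein, from 0.03 to 0.7 FPKM.

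In WT males, genes of mitosis, of nucleotide supply and the chromosome marker Mki67 were higher with CL, and none of Mcm2 to Mcm7 passed. Of the 37 genes tested, 16 rose and 0 fell (limma, Benjamini-Hochberg adjusted over 13174 genes), where 5.35% of all genes tested rose and 5.92% fell. The median log2 change of the 37, the CL minus NaCl difference of log2(FPKM + 1), was 0.65, and it was -0.05 over all genes. Every CL column lay above every NaCl column for 26 of the 37 tested genes, against 9.53% of all genes tested, and for 29 of the 40 genes in all. The reverse, every CL column below every NaCl column, held for 0 of the 37 and for 16.1% of all genes. With no filter on low values, 17 of 40 rose, Cenpe (log2 change 0.35, adjusted p = 0.0294) and Cenpf (0.33, adjusted p = 0.00931) among them and Rrm1 not. Of the 16, Ccnb1 reached 1 FPKM in 12 mice and Kif11 in 11, fewer than 3 of them NaCl-treated for either gene. Both met the filter only with CL-treated mice, so their selection for testing was not independent of treatment.

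Prc1, which bundles the microtubules of the central spindle, had the smallest p. It measured 3.51, 2.04, 3.43 and 2.59 FPKM in the CL libraries of WT males, against 0.74, 0.73, 0.61 and 0.73 FPKM in their NaCl libraries. The groups did not overlap, and the lowest CL library was above the highest NaCl library by more than the spread of the NaCl libraries. Its log2 change was 1.18 ± 0.22 (SE, limma adjusted p = 0.00125). Tpx2, which activates Aurora A on the spindle, measured 2.91, 2.38, 2.64 and 3.03 FPKM with CL, against 1.07, 0.79, 0.9 and 1.37 FPKM with NaCl (log2 change 0.89 ± 0.22, adjusted p = 0.0101). The motor genes Kif11 and Kif20a and the spindle gene Nusap1 also rose, by log2 changes of 0.72, 0.68 and 0.62. Kif23, Kif4 and Racgap1, which act in chromosome and midzone organisation and cytokinesis, had log2 changes of 0.51, 0.46 and 0.79 and did not pass. Thus 5 of 8 spindle and cytokinesis genes rose.

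Among the mitotic kinases and cyclins, 4 of 9 rose. Cdk1, the kinase that drives entry into mitosis, measured 3.7, 2.57, 3.29 and 2.26 FPKM in CL-treated WT males, against 0.8, 0.81, 1.02 and 1.24 FPKM in NaCl-treated WT males. The groups did not overlap (log2 change 1.00 ± 0.22, adjusted p = 0.00539). Its partner Ccnb1 measured 1.65, 1.61, 1.75 and 1.38 FPKM with CL, against 0.51, 0.35, 0.15 and 0.74 FPKM with NaCl (log2 change 0.87 ± 0.19, adjusted p = 0.00379). The second B-type cyclin, Ccnb2, measured 3.8, 3.16, 2.97 and 3.18 FPKM with CL, against 0.84, 1.27, 0.59 and 2.04 FPKM with NaCl (log2 change 1.01 ± 0.25, adjusted p = 0.0115). Ccna2, the cyclin of S and G2 phase, measured 4.19, 3.39, 3.95 and 3.39 FPKM with CL, against 1.18, 1.24, 1.12 and 1.92 FPKM with NaCl (log2 change 1.01 ± 0.25, adjusted p = 0.0115). For each of these 4 genes all 4 CL libraries lay above all 4 NaCl libraries. The kinase genes Aurka, Aurkb and Plk1 and the chromosomal passenger genes Birc5 and Cdca8 had log2 changes of 0.48 to 0.90 with adjusted p from 0.0868 to 0.129.

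Of the chromosome genes, 3 of 5 rose. Mki67, which encodes the Ki-67 protein that coats mitotic chromosomes, measured 4.13, 3.03, 3.9 and 3.16 FPKM with CL, against 1.04, 1.4, 0.95 and 1.56 FPKM with NaCl. The means were 3.56 ± 0.54 FPKM in CL-treated and 1.24 ± 0.29 FPKM in NaCl-treated WT males (SD, n = 4 each), with a log2 change of 1.03 ± 0.23 and an adjusted p from limma of 0.00513. Foxm1, a transcription factor of mitotic genes, measured 2.21, 1.89, 2.02 and 1.7 FPKM with CL, against 0.69, 0.84, 0.6 and 1.0 FPKM with NaCl (log2 change 0.73 ± 0.17, adjusted p = 0.00685). Top2a, the topoisomerase that untangles sister chromatids, measured 4.05, 2.54, 3.29 and 2.95 FPKM with CL, against 1.13, 1.01, 0.75 and 1.98 FPKM with NaCl (log2 change 0.94 ± 0.27, adjusted p = 0.0275). None of the 3 genes overlapped between treatments. Hmgb2 and Stmn1 had log2 changes of 0.66 and 0.57 and did not pass.

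Of the 4 checkpoint and kinetochore genes tested, Bub1b and Cdc20 rose. Bub1b encodes the checkpoint protein BubR1 and measured 2.52, 1.58, 2.0 and 1.55 FPKM with CL, against 0.93, 0.63, 0.77 and 1.1 FPKM with NaCl (log2 change 0.64 ± 0.19, adjusted p = 0.0303). Cdc20, the activator of the anaphase-promoting complex, measured 4.28, 2.98, 3.93 and 3.49 FPKM with CL, against 1.17, 1.17, 1.0 and 2.4 FPKM with NaCl (log2 change 0.97 ± 0.29, adjusted p = 0.0349). Neither gene overlapped between treatments, and NaCl replicate 4 was the highest NaCl library of both. Ndc80, a kinetochore protein, and Ube2c, the ubiquitin-conjugating enzyme of that complex, had log2 changes of 0.60 and 0.63 with adjusted p of 0.0744 and 0.158.

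Nucleotide supply was split. Rrm2, the regulated small subunit of ribonucleotide reductase, measured 5.73, 3.14, 5.08 and 4.36 FPKM with CL, against 1.36, 1.32, 1.06 and 2.35 FPKM with NaCl (log2 change 1.15 ± 0.25, adjusted p = 0.00369). Rrm1, its large subunit, measured 6.76, 6.47, 6.62 and 7.21 FPKM with CL, against 5.5, 4.65, 4.63 and 6.03 FPKM with NaCl (log2 change 0.33 ± 0.11, adjusted p = 0.0469). Both subunits rose with no overlap between treatments, Rrm1 by a smaller log2 change. Thymidine kinase Tk1 had a log2 change of 0.90 ± 0.30 (adjusted p = 0.0518), and thymidylate synthase Tyms of 0.07 ± 0.11 (95% interval -0.17 to 0.30).

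None of the 7 members of the licensing role passed in WT males. The helicase loader Cdc6 and the helicase activator Cdc45, from a further list described below, did pass. Mcm5, a helicase subunit, measured 6.95, 4.16, 4.3 and 4.11 FPKM with CL, against 3.86, 3.03, 2.24 and 5.44 FPKM with NaCl. The groups overlapped, and the log2 change was 0.36 ± 0.29 (95% interval -0.23 to 0.95, adjusted p = 0.492). Over Mcm2 to Mcm7 and Pcna the log2 changes ranged from -0.07 to 0.36. The interval of Pcna ran from -0.34 to 0.22 and that of Mcm7 from -0.41 to 0.28, so a log2 change of 1 was outside the interval for both. The intervals of Mcm2 (-0.22 to 0.80) and Mcm5 were wider.

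Without 1 library the count of 16 was 9 without CL replicate 1, 10 without CL replicate 3, 10 without NaCl replicate 1, 10 without NaCl replicate 2 and 9 without NaCl replicate 3, and from 12 to 16 without each of the others. Under all 19 alternatives run, leaving out each library included, 8 genes passed with the same direction, namely Prc1, Rrm2, Mki67, Foxm1, Cdk1, Ccnb1, Ccna2 and Tpx2. Rrm1 passed in 3 of the 19.

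**Figure D1:**
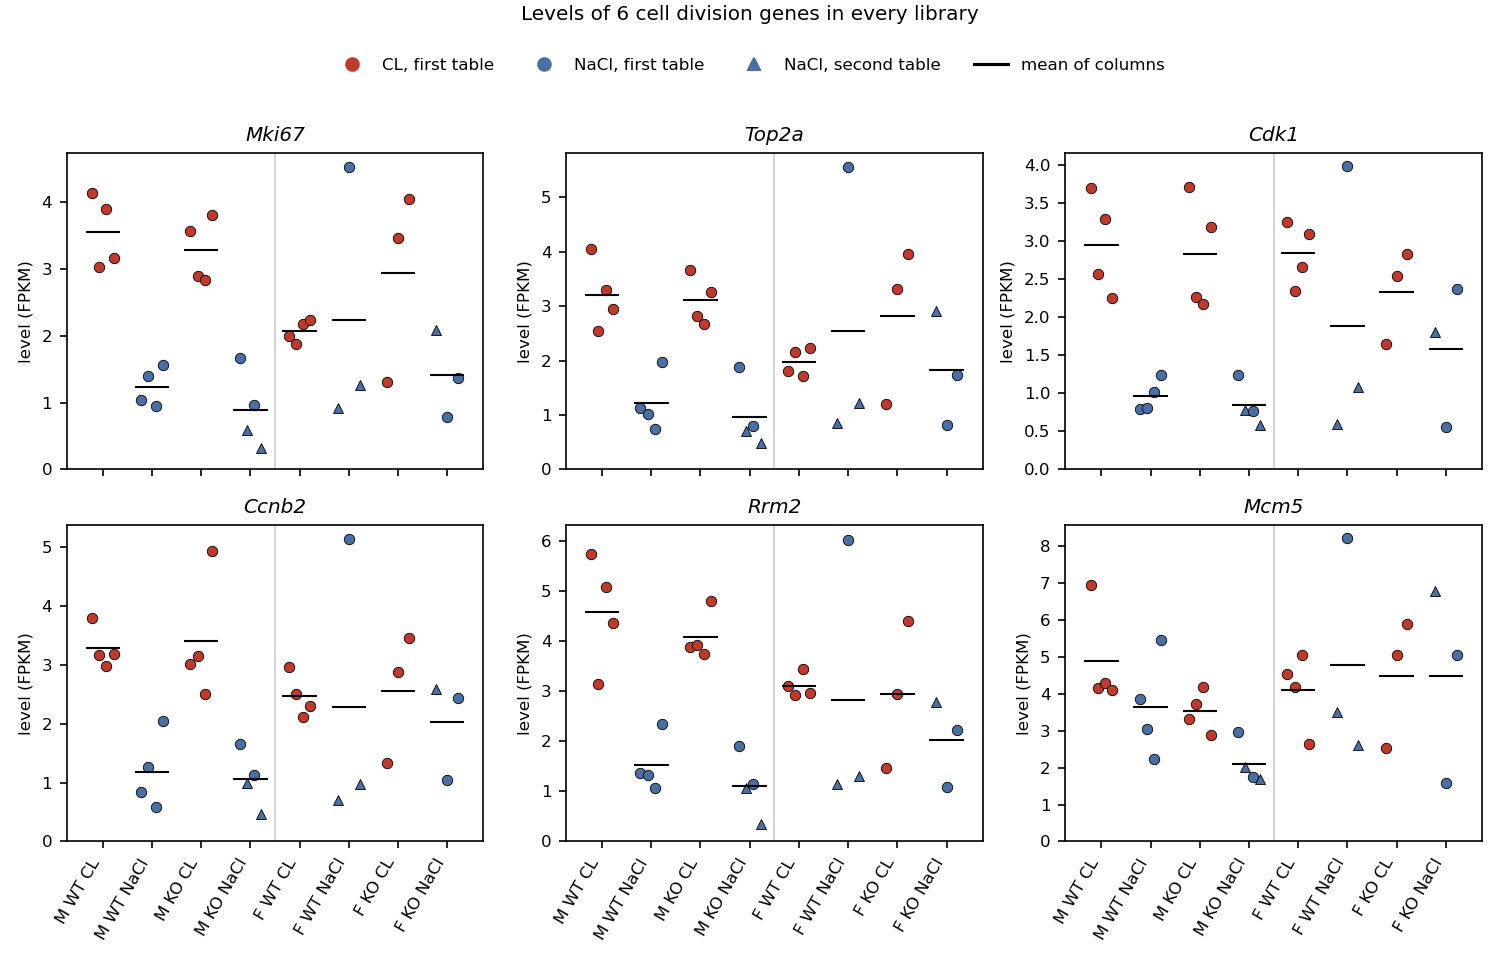
Level in FPKM (vertical axis, linear) of 6 genes in each of the 29 columns, by group, with CL left of NaCl within each sex and genotype (M male, F female), points for columns (triangles for the second table) and a bar for their mean. In males the CL columns of Mki67, Top2a, Cdk1, Ccnb2 and Rrm2 lie above all NaCl columns, those of Mcm5 overlap in WT males, and in WT females a single first-table NaCl column lies above all CL columns for all 6 genes.

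In KO males 8 of the 37 genes tested rose with CL and 0 fell (limma, adjusted over all genes), where 2.1% of all genes tested rose and 5.15% fell. The median log2 change of the 37 was 0.71, and it was 0.01 over all genes. Every CL column lay above every NaCl column for 24 of the 37 tested genes (7.21% of all genes tested) and for 26 of the 40, and the reverse for 0 of the 37 (11.1% of all genes). The genes that rose were Rrm2, Mki67, Racgap1, Cdc20, Prc1, Kif4, Bub1b and Cdk1. Of these 8, 6 were also among the 16 of WT males, and Racgap1 and Kif4 were not.

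Racgap1, a component of the centralspindlin complex of the cleavage furrow, had the largest log2 change among the members in KO males. It measured 4.15, 5.61, 8.41 and 3.64 FPKM in CL-treated KO males. In NaCl-treated KO males it measured 2.16 FPKM in replicate 1, 1.28 FPKM in replicate 2 and 1.18 and 1.12 FPKM in the 2 columns of replicate 3. The groups did not overlap (log2 change 1.54 ± 0.39, adjusted p = 0.0203). Rrm2 measured 3.88, 3.92, 3.74 and 4.79 FPKM with CL, against 1.9, 1.06, 1.14 and 0.35 FPKM with NaCl (log2 change 1.18 ± 0.31, adjusted p = 0.0211). Mki67 measured 3.57, 2.89, 2.84 and 3.8 FPKM with CL, against 1.66, 0.59, 0.97 and 0.32 FPKM with NaCl (log2 change 1.09 ± 0.29, adjusted p = 0.0232). For both genes the lowest NaCl value was the second-table column of replicate 3. Cdk1 measured 3.72, 2.27, 2.18 and 3.19 FPKM with CL, against 1.24, 0.78, 0.77 and 0.59 FPKM with NaCl (log2 change 0.92 ± 0.28, adjusted p = 0.0489). Its groups did not overlap.

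Prc1 measured 3.76, 2.46, 2.45 and 2.95 FPKM with CL in KO males, against 1.62, 0.69, 0.55 and 0.48 FPKM with NaCl (log2 change 0.93 ± 0.28, adjusted p = 0.0432). Cdc20 measured 3.16, 3.84, 3.83 and 4.23 FPKM with CL, against 1.81, 0.98, 0.9 and 0.48 FPKM with NaCl (log2 change 1.27 ± 0.36, adjusted p = 0.0357). Bub1b measured 1.99, 1.81, 1.51 and 2.15 FPKM with CL, against 1.01, 0.61, 0.58 and 0.43 FPKM with NaCl (log2 change 0.79 ± 0.24, adjusted p = 0.046). In all 3 genes NaCl replicate 1 was the highest NaCl library, as it was for 38 of the 40 genes. Kif4, a chromosome-bound motor, measured 1.11, 0.8, 0.95 and 0.94 FPKM with CL, against 0.39, 0.21, 0.13 and 0.01 FPKM with NaCl. Its log2 change was 0.67 ± 0.20 (limma adjusted p = 0.0445). Kif4 was near the filter limit and met it only through 3 CL-treated mice, so its selection for testing was not independent of treatment.

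Top2a and Ccnb2 did not pass in KO males although their groups did not overlap. Top2a measured 3.67, 2.82, 2.68 and 3.27 FPKM with CL, against 1.89, 0.71, 0.79 and 0.48 FPKM with NaCl (log2 change 0.99 ± 0.34, adjusted p = 0.0804). Ccnb2 measured 3.01, 3.14, 2.5 and 4.93 FPKM with CL, against 1.66, 1.0, 1.13 and 0.46 FPKM with NaCl (log2 change 0.96 ± 0.31, adjusted p = 0.0669). Of the licensing genes 0 of 7 passed, and 0 of 7 had an unadjusted p under 0.05, against 22.4% of all genes tested. Mcm5 measured 3.32, 3.72, 4.18 and 2.87 FPKM with CL, against 2.96, 2.01, 1.74 and 1.69 FPKM with NaCl, which overlapped (log2 change 0.64 ± 0.36, 95% interval -0.10 to 1.38). Rrm1 had a log2 change of -0.19 ± 0.13 (95% interval -0.46 to 0.08).

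Without 1 library the count of 8 was 0 (NaCl replicate 3), 1 (CL replicate 4), 2 (CL replicate 3), 3 (NaCl replicate 2), 4 (CL replicate 1), 6 (CL replicate 2) or 7 (NaCl replicate 1). The log2 changes of the 8 genes kept their sign in all 18 alternatives run, and Racgap1 passed in 15 of the 18, Rrm2 and Mki67 in 13 each.

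**Figure D2:**
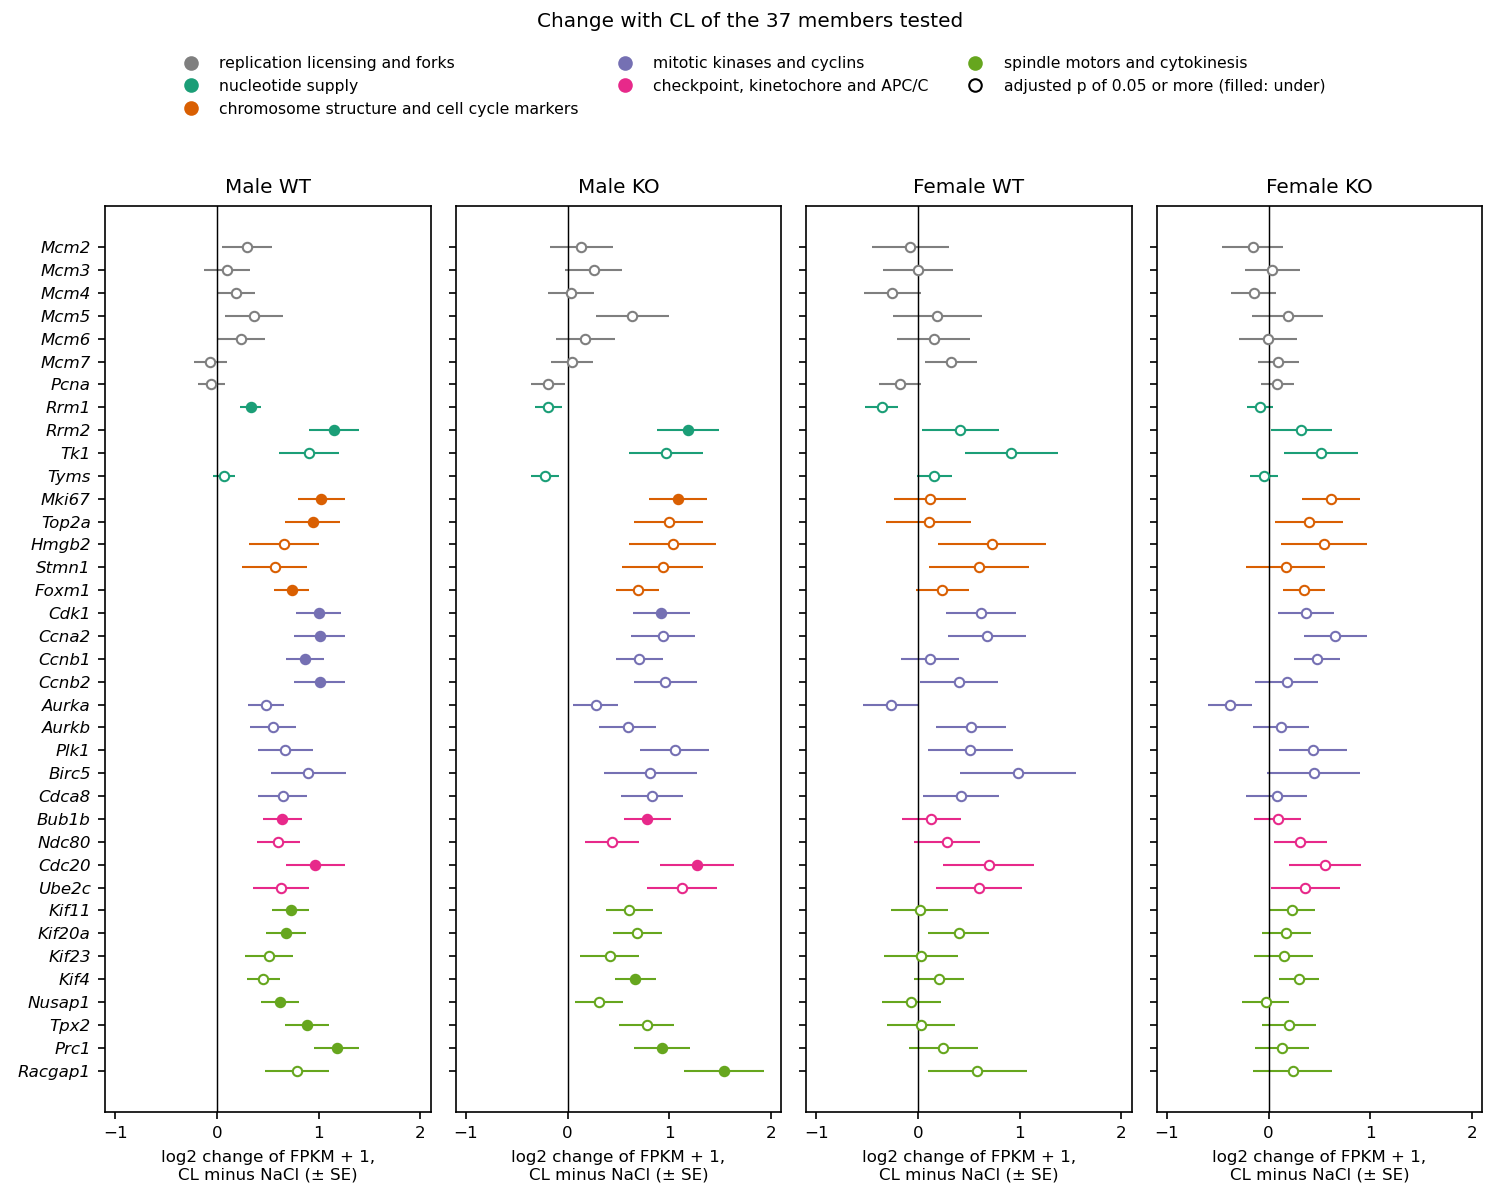
Log2 change with CL (horizontal axis, CL minus NaCl of log2(FPKM + 1), point ± SE) of the 37 genes tested, a panel for each sex and genotype, coloured by role and filled where the adjusted p was under 0.05. Filled points occur in the panels of KO males (8) and WT males (16), none of them a licensing gene (grey), and there is none in the female panels.

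In WT females no member passed for the effect of CL (limma, 0 of 37), where 2.01% of all genes tested rose and 1.55% fell. The unadjusted p was under 0.05 for 1 of the 37 (Rrm1), against 22% of all genes tested. The median log2 change of the 37 was 0.24. For 0 of the 37 did all CL columns lie above the NaCl columns (7.45% of all genes) or below them (11.3%). Mki67 measured 2.0, 1.87, 2.17 and 2.23 FPKM in CL-treated WT females. In NaCl-treated WT females it measured 0.92 FPKM in replicate 1 and, for replicate 3, 4.52 FPKM in the first-table column and 1.26 FPKM in the second-table column. The CL libraries were close together, and the NaCl columns lay on both sides of them.

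Cdk1, Top2a and Rrm2 had the same layout. Cdk1 measured 3.25, 2.35, 2.67 and 3.1 FPKM with CL in WT females, against 0.6, 3.99 and 1.09 FPKM with NaCl in the same column order. Top2a measured 1.8, 2.15, 1.72 and 2.24 FPKM with CL, against 0.85, 5.56 and 1.22 FPKM with NaCl. Rrm2 measured 3.11, 2.92, 3.43 and 2.97 FPKM with CL, against 1.15, 6.02 and 1.31 FPKM with NaCl. In each, the first-table NaCl column was the highest and the other 2 NaCl columns were below every CL library. Ccnb2 measured 2.96, 2.51, 2.12 and 2.3 FPKM with CL, against 0.71, 5.13 and 0.98 FPKM with NaCl. Mcm5 measured 4.53, 4.17, 5.05 and 2.65 FPKM with CL, against 3.49, 8.22 and 2.62 FPKM with NaCl, so its NaCl replicate 1 lay within the range of the CL libraries.

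The sign of the female WT result depended on which column stood for NaCl replicate 3. With the second-table column alone, 33 of the 37 genes were above 0, where 46% of all genes were above 0 in the main result, and the median log2 change was 0.53. With the first-table column alone, 8 of the 37 were above 0 and the median was -0.13. Without that mouse the median was 0.69, with 35 of 37 above 0, and 0 genes passed. The intervals of the main result were wide: Mki67 had a log2 change of 0.12 (95% interval -0.62 to 0.85) and Cdk1 of 0.62 (95% interval -0.10 to 1.34), so a log2 change of 1 was within the interval of Cdk1.

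In KO females 0 of 37 members passed (limma), where 5.14% of all genes tested rose and 2.28% fell. The unadjusted p was under 0.05 for 2 of the 37, Mki67 and Ccna2, against 21.6% of all genes tested. The median log2 change was 0.19. Mki67 measured 1.31, 3.46 and 4.05 FPKM in CL-treated KO females, against 2.09, 0.79 and 1.36 FPKM in NaCl-treated KO females (log2 change 0.61, 95% interval 0.03 to 1.20, adjusted p = 0.205). Ccna2 had a log2 change of 0.66 (95% interval 0.01 to 1.30, adjusted p = 0.22). For 0 of the 37 did all CL columns lie above the NaCl columns (10.5% of all genes) or below them (9.4%).

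One library of each treatment stood apart in KO females. CL replicate 1 was the lowest of its group for 40 of the 40 genes, and NaCl replicate 2, with 14860.34 FPKM of the muscle actin gene Acta1, was the lowest of its group for 37 of the 40. Cdk1 measured 1.65, 2.54 and 2.83 FPKM with CL, against 1.81, 0.56 and 2.37 FPKM with NaCl. Top2a measured 1.2, 3.31 and 3.96 FPKM with CL, against 2.92, 0.82 and 1.73 FPKM with NaCl. Both genes were lowest in these 2 libraries. Rrm2 measured 1.47, 2.94 and 4.39 FPKM with CL, against 2.78, 1.08 and 2.22 FPKM with NaCl. Ccnb2 measured 1.33, 2.88 and 3.46 FPKM with CL, against 2.58, 1.05 and 2.44 FPKM with NaCl. Mcm5 measured 2.53, 5.05 and 5.89 FPKM with CL, against 6.78, 1.57 and 5.05 FPKM with NaCl. Without NaCl replicate 2 the median log2 change of the 37 was -0.19, with 9 above 0 (47.1% of all genes in the main result), and without CL replicate 1 it was 0.46, with 35 above 0. No member passed in either case, while 3 passed without NaCl replicate 1.

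**Figure D3:**
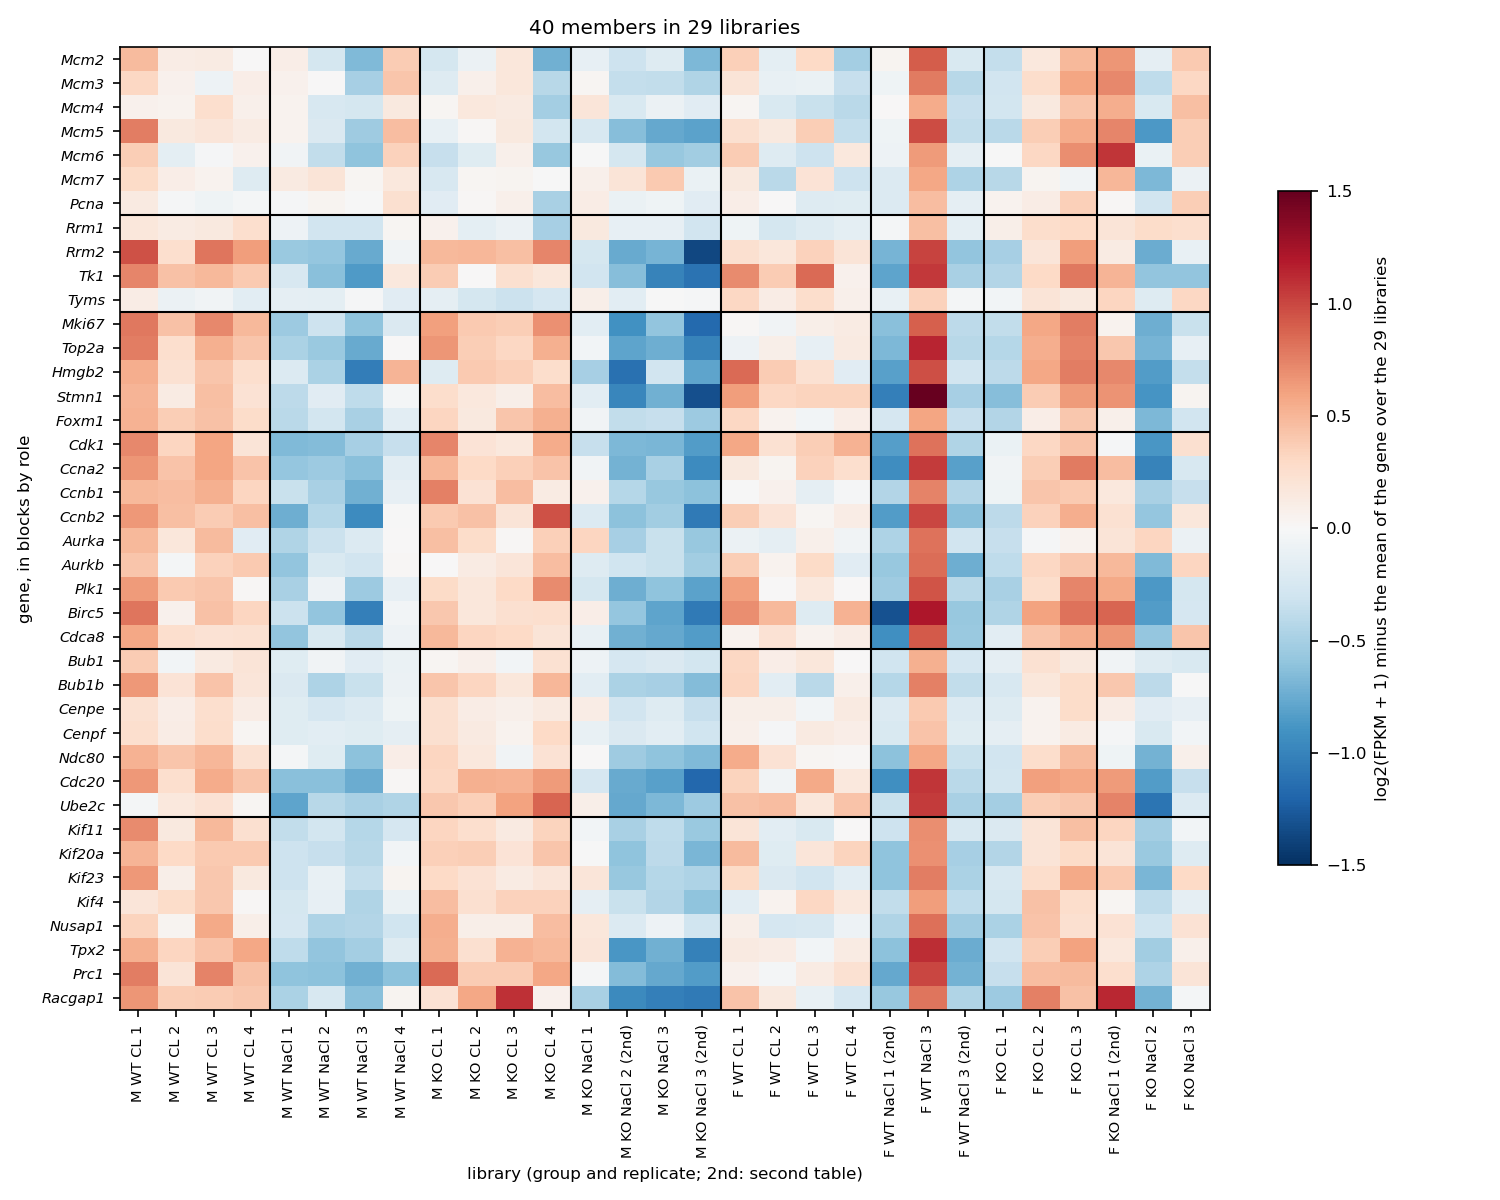
Difference of log2(FPKM + 1) from each gene's mean over the 29 columns (colour, red higher) for the 40 genes in rows, in blocks by role, and the libraries in columns with CL left of NaCl. The male CL blocks are red and the male NaCl blocks blue for most genes below the licensing block, and female WT NaCl replicate 3 of the first table is red in nearly every row.

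Whether CL acted differently in the sexes or genotypes was tested directly, as the difference of the CL effects. No member passed in any of the 4 interaction tests (limma), in which 0.0228% to 0.0531% of all genes passed: 0.0228% for sex in WT mice, 0.0304% for sex in KO mice, 0.0531% for genotype in males and 0.0228% for genotype in females. For female minus male in WT mice, 7 of 37 had an unadjusted p under 0.05, against 9.2% of all genes tested. Prc1 was among them, with a difference of log2 changes of -0.93 (95% interval -1.77 to -0.09, adjusted p = 0.505), and so was Aurka (-0.75, adjusted p = 0.503). For female minus male in KO mice it was 5 of 37, against 10.1%, led by Racgap1 (-1.30, 95% interval -2.35 to -0.25, adjusted p = 0.369). For KO minus WT it was 1 of 37 in males (12% of all genes tested) and 0 of 37 in females (4.77%). The rise seen in males is thus not shown to differ from the effect in females.

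Between genotypes within a sex and treatment, only 1 member passed, which with groups this small does not show that the others were equal. In males with CL 0 of 37 passed (limma, 1 at an unadjusted p under 0.05 against 14% of all genes, where 0.843% of all genes tested rose and 1.1% fell), and the median log2 difference, KO minus WT, was -0.09. Every KO column of CL-treated males lay above every WT column for Ube2c (3.67% of all genes tested), and below for Rrm1 and Tk1 (7.89%). In males with NaCl 0 of 37 passed, where 3.18% of all genes rose and 4.16% fell, and 0 had an unadjusted p under 0.05, against 25.8% of all genes. Racgap1 had the smallest p there, with a difference of -0.72 (95% interval -1.54 to 0.10). In females with NaCl 0 of 37 passed (0.0911% of all genes rose, 0.417% fell) and 0 had an unadjusted p under 0.05, against 9.25% of all genes. In females with CL 1 passed, where 9.01% of all genes rose and 3.63% fell.

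That gene was Rrm1. With CL it measured 6.29, 7.27 and 7.47 FPKM in KO females, against 5.58, 4.74, 5.03 and 5.19 FPKM in WT females (log2 difference 0.38 ± 0.11, adjusted p = 0.0326). In males with CL it measured 6.19, 5.22, 5.46 and 3.86 FPKM in KO mice, against 6.76, 6.47, 6.62 and 7.21 FPKM in WT mice (log2 difference -0.34 ± 0.11, adjusted p = 0.11). Neither pair of groups overlapped, with KO above WT in females and below it in males. The difference between the sexes in this genotype effect was not tested. Female KO was above male KO with CL (log2 difference 0.39 ± 0.11, adjusted p = 0.0332), and female WT was below male WT (-0.34 ± 0.11, adjusted p = 0.0307). These comparisons share libraries and are not independent. In each of the 3 that passed, leaving out 1 library gave an adjusted p of up to 0.145, and the call held in 2 or 3 of the 7 or 8 cases.

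Rrm1 was the only member that passed between the sexes with CL. In WT mice 0 of 37 were higher and 1 was lower in females, where 7.81% of all genes were higher and 10.1% lower. In KO mice 1 was higher and 0 lower, where 8.43% were higher and 2.59% lower. For Mcm4, Rrm1, Mki67, Top2a, Ccna2, Ccnb1, Ccnb2 and Tpx2, 8 of the 40, every CL library of WT females lay below every CL library of WT males, against 11.9% of all genes tested. Mki67 had a log2 difference, female minus male, of -0.56 (95% interval -1.04 to -0.09, adjusted p = 0.0902) and Ccnb1 of -0.48 (adjusted p = 0.0787).

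Other genes of the cycle were read from 4 lists chosen for their function, with earlier results of these data known. Their counts are therefore not independent of these data. Of 31 further mitosis genes tested, 10 rose and 1 fell with CL in WT males, and 2 rose in KO males. Of all genes tested, 5.35% rose and 5.92% fell in WT males, and 2.1% rose in KO males. Ckap2, a spindle protein, had a log2 change of 0.85 ± 0.16 in WT males (adjusted p = 0.00129) and Cep55, which acts in abscission, of 0.75 ± 0.16 (adjusted p = 0.00379). The gene that fell was Bub3, a checkpoint protein (-0.34 ± 0.08, adjusted p = 0.0114). In KO males the 2 were the chromosome motor gene Kif22 (1.07 ± 0.29, adjusted p = 0.027) and Cep55 (0.73 ± 0.20, adjusted p = 0.03).

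Of 37 genes of origin firing and DNA synthesis, 2 rose in KO males (2.1% of all genes), 3 in WT males (5.35%) and 1 in KO females (5.14%), so these counts were near the shares over all genes. The 3 in WT males were the helicase loader Cdc6 (log2 change 0.62 ± 0.13, adjusted p = 0.00246), the helicase activator Cdc45 (0.60 ± 0.12, adjusted p = 0.00258) and Gmnn (0.81 ± 0.17, adjusted p = 0.00332), which encodes geminin, the inhibitor of licensing. Cdc45 also rose in KO males (0.73 ± 0.15, adjusted p = 0.00601) and KO females (0.56 ± 0.15, adjusted p = 0.0272), and the polymerase gene Pole in KO males (0.55 ± 0.16, adjusted p = 0.037). Of 16 genes of G1 to S control, 1 rose in each male genotype, which is also near the 2.1% of all genes in KO males and 5.35% in WT males. It was the cyclin gene Ccne1 (0.83 ± 0.20, adjusted p = 0.00851 in WT males and 1.04 ± 0.25, adjusted p = 0.0134 in KO males). The CL effect on Ccne1 was 0.87 in WT females (adjusted p = 0.102) and 0.66 in KO females (adjusted p = 0.104).

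Among cell cycle inhibitors, 0 of 13 in WT males rose and 4 fell, against 5.92% of all genes that fell. Cdkn1a, which encodes the CDK inhibitor p21, had a log2 change of -1.55 ± 0.21 (adjusted p = 3.92e-05), Cdkn2b, the inhibitor of CDK4 and CDK6 known as p15, of -0.68 ± 0.16 (adjusted p = 0.00611), and Gas1, a gene of growth arrest, of -0.46 ± 0.11 (adjusted p = 0.0105). The fourth was Btg2 (-0.59 ± 0.19, adjusted p = 0.0466). In WT females 2 of 13 fell (1.55% of all genes), Gas1 (-0.71 ± 0.18, adjusted p = 0.0313) and Cdkn1a (-1.29 ± 0.32, adjusted p = 0.0321). In KO males 1 fell (5.15% of all genes), Gas1 (-0.88 ± 0.14, adjusted p = 0.00175), and in KO females 1 (2.28%), Cdkn1a (-0.85 ± 0.26, adjusted p = 0.0476).

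Levels of lymphocyte markers varied widely between libraries. The mean log2(FPKM + 1) of 10 T cell genes was 3.89 to 4.19 in CL libraries of WT males and 0.59 to 4.87 in their NaCl libraries, and that of 10 B cell genes 3.80 to 5.03 with CL and 0.17 to 5.55 with NaCl. In WT males the mean of the 7 licensing genes was highest in CL replicate 1 (3.58). Among the NaCl libraries it was lowest in replicate 3 (2.87), where the T and B cell genes were lowest. It was highest there in replicate 4 (3.54), where the T and B cell genes were highest. Among these NaCl libraries the spindle and cytokinesis genes were likewise lowest in replicate 3 (0.81) and highest in replicate 4 (1.13), and over the 40 genes replicate 4 was highest for 33 and replicate 3 lowest for 26. In the 4 CL libraries the spindle and cytokinesis genes averaged 1.52 to 1.85.

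In KO males the T cell level was 0.29, 4.37, 5.00 and 1.77 in the CL libraries, against 0.65 to 1.36 in the NaCl columns, so 3 of the 4 CL libraries lay above every NaCl column. The spindle level of the same CL libraries was 1.75, 1.60, 1.67 and 1.66, against 0.61 to 1.28 in the NaCl columns. All 10 T cell genes had log2 changes above 0 with CL in KO males, by 1.88 to 3.27, with a smallest adjusted p of 0.155 (limma). With the lymphocyte level as a covariate, a fit added after the data were seen, 3 of 37 members passed in KO males and 15 in WT males.

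None of the 10 T cell or 10 B cell genes passed with CL in any of the 4 CL effects (limma), and 3 T cell genes had an unadjusted p under 0.05, all in KO males. Of 7 endothelial genes 1 rose in KO males and 0 in WT males. It was Cdh5, the cadherin of endothelial junctions, with a log2 change of 1.16 ± 0.34 (adjusted p = 0.0414), while Pecam1 had 0.90 (adjusted p = 0.0624) and Vwf 0.72 (adjusted p = 0.151) in KO males. The others did not move together there: Kdr had 0.68, Emcn 0.32, Cldn5 0.03 and Tek -0.52 (limma adjusted p = 0.177 for Tek). The endothelial genes summed to 302 to 373 FPKM with CL and 180 to 370 FPKM with NaCl in KO males. Of 12 macrophage genes 11 fell in KO males and 3 in WT males, and of 10 stromal and progenitor genes 7 fell in KO males and 3 in WT males, while 2 of 8 brown and beige fat genes rose in KO males and 6 in WT males. Over all genes tested, 2.1% rose and 5.15% fell in KO males, and 5.35% rose and 5.92% fell in WT males. The summed FPKM of the macrophage genes was 436 to 906 with CL and 943 to 3368 with NaCl in KO males, and 505 to 793 with CL and 914 to 1277 with NaCl in WT males. The part of these cells in the rise of the division genes was not tested. Muscle genes summed to 11.1 to 838 FPKM with CL and 32.1 to 3120 FPKM with NaCl in KO males, to 16.9 to 3451 FPKM with CL and 10.8 to 17.9 FPKM with NaCl in WT males, and to 9.3 to 10.7 FPKM with CL and 5.6 to 54636 FPKM with NaCl in KO females. In KO males their mean log2(FPKM + 1) was 1.36 to 6.95 in the NaCl columns, above 3 of the 4 CL libraries (0.55 to 0.58), with CL replicate 4 at 4.72. Their log2 changes with CL were below 0 for 12 of 12 in KO males (median -4.65), KO females (median -5.00) and WT females (median -3.28). None of these 12 passed (limma), with an unadjusted p under 0.05 for 9 in KO males, 12 in KO females and 0 in WT females. Their part was not tested beyond leaving libraries out: without the 4 libraries highest in muscle 2 members passed in KO males and 17 in WT males.

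**Figure D4:**
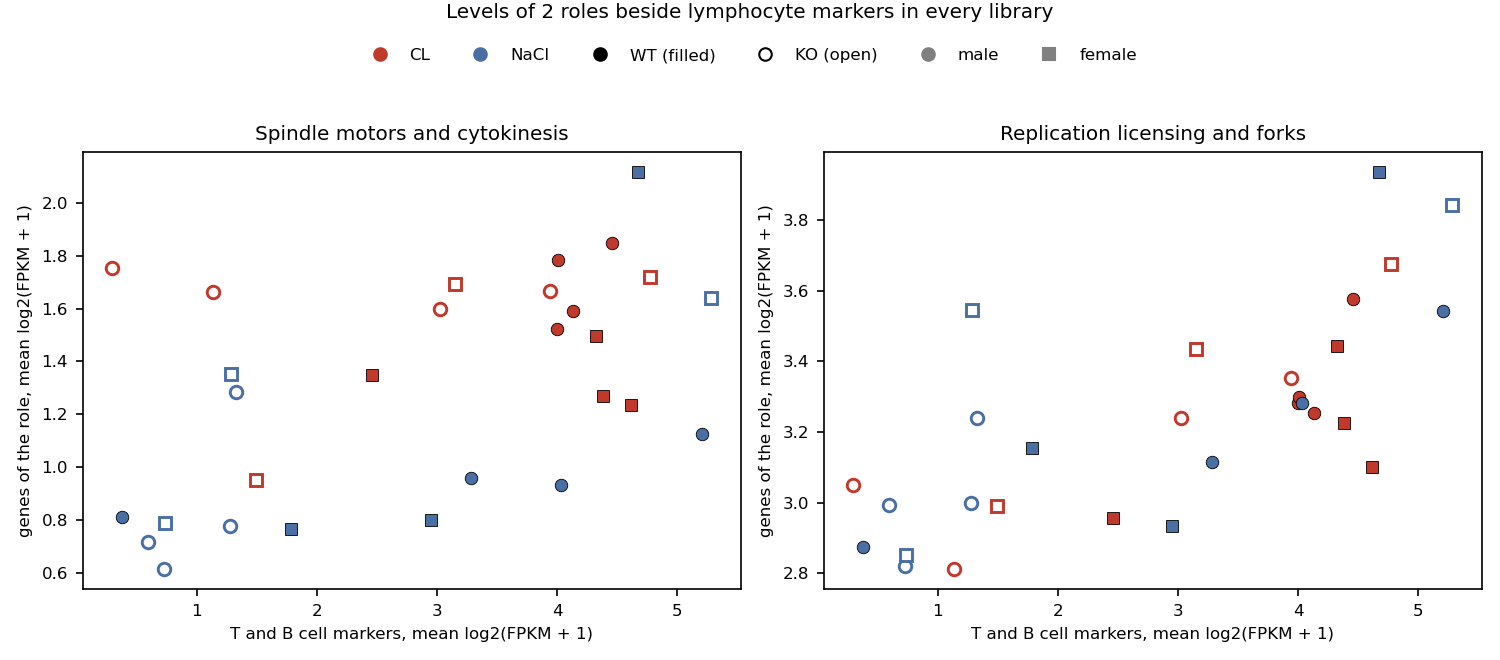
Mean log2(FPKM + 1) of the 8 spindle and cytokinesis genes (left, vertical axis) and of the 7 licensing genes (right) against that of 20 T and B cell markers (horizontal axis), a point for each column, red for CL, filled for WT, squares for females. On the left every male CL point lies above every male NaCl point, and on the right they are intermixed.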

How the data were processed

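RNA of subcutaneous white fat was sequenced in 29 sample records. Per the submitters' processing notes, reads were aligned with HISAT2 2.0.4 to the mouse genome GRCm38 (mm10). The authors deposited FPKM in 2 tables made separately (24 and 5 columns, 17536 genes in both), and the program that made these values is not stated in the sources used here. FPKM gives no counts, so no count model was used and depth is unknown.

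The 13174 genes that reached 1 FPKM in 3 or more mice were fitted as log2(FPKM + 1), a scale that understates changes of genes at low FPKM, with limma 3.58.1 in R 4.3.3 (trend=TRUE, two-sided, 8 group means and the table as covariate, 18 residual and 2.92 prior degrees of freedom). Columns with a repeated name were averaged on the log2 scale, and group means in FPKM average such columns first. P-values were adjusted by Benjamini-Hochberg over all genes within each of 14 comparisons, with a threshold of 0.05. The fit was tested on simulated data. CL samples were grouped by their titles, since their treatment labels count up.

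Named members are those listed in the text for every effect (Mki67, Top2a, Rrm2, Cdk1, Ccnb2 and Mcm5), up to 2 more per role with the smallest p among those that passed in a CL effect, and up to 3 per other comparison or further list. Others are given by role. The members and lists were chosen with earlier results of these data known. Alternatives were another pseudocount (0.1), no filter, quantile normalization, other uses of the repeated columns and tables, only the groups compared, a replicate block, and leaving out libraries. Motifs were searched in RefSeq promoters of GRCm38.p6.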

Additional observations from a re-analysis of the deposited data

Results flagged for a closer look

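Among 160 combinations of a member and a group of 4 mice, 10 held a mouse far from the other 3, with a gap to its neighbour above the 95% critical value of Dixon's test. Chance gives about 1 in 20. In male WT CL, Mcm4 was at 5.86 FPKM in replicate 3 and at 4.96 to 5.04 FPKM in the others. Replicate 1 of that group stood apart for Mcm5 (6.95 FPKM, others 4.11 to 4.3), Cdca8 (4.38 FPKM, others 3.18 to 3.3) and Racgap1 (6.0 FPKM, others 4.73 to 4.86). In male WT NaCl, replicate 4 was high for Ccna2 (1.92 FPKM, others 1.12 to 1.24) and Cdc20 (2.4 FPKM, others 1.0 to 1.17), and replicate 3 was low for Prc1 (0.61 FPKM, others 0.73 to 0.74). In male KO CL, Tpx2 was low in replicate 2 (2.19 FPKM, others 2.79 to 2.9). In female WT CL, Stmn1 was high in replicate 1 (30.44 FPKM, others 24.32 to 24.76) and Ube2c low in replicate 3 (11.43 FPKM, others 13.84 to 14.2).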

How the results depend on the processing

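Counts are members past an adjusted p of 0.05, and the cause of each shift was not tested. The count of 16 in WT males was 10 when repeated names kept their first-table column, 27 with only the groups compared, 9 to 16 without 1 library and 12 to 18 under the other alternatives. The 8 in KO males became 17 with quantile normalization, 4 with each column as its own mouse, 2 with the first-table columns, 0 with only the groups compared, 2 without the libraries highest in muscle, 3 with the lymphocyte level as a covariate (added after the data were seen) and 0 to 7 without 1 library. The count in KO males also depended on which column stood for NaCl replicate 3. The 2 with the first-table columns were 1 chromosome gene and 1 spindle gene. With the second-table columns, 3 of 9 mitotic kinases and cyclins, 3 of 4 checkpoint genes and 3 of 8 spindle genes rose. So did 1 nucleotide gene and 1 chromosome gene.

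The 0 in WT females became 1 with each column as its own mouse, 1 with the first-table column and 8 with the first table alone, all of them lower with CL. The last setting leaves 1 NaCl library there, assumed to vary like the others. The first table alone gave 2 in KO females (higher), 4 between genotypes in NaCl-treated females (lower in KO) and 5 in the sex by treatment test of WT mice (all below 0), against 0 each. Without 1 library, KO females with CL gave 0 to 3 (higher) and the KO minus WT comparison of CL-treated males 0 to 1 (lower in KO). The single call between genotypes in CL-treated females became 0 with quantile normalization or only the groups compared and 2 with the lymphocyte covariate. Between sexes in CL-treated WT mice, 1 became 2 with quantile normalization, the first table alone, only the groups compared or the lymphocyte covariate, and 3 without the muscle libraries. Between sexes in CL-treated KO mice, 1 became 0 with only the groups compared or without the muscle libraries, and 3 genes on the opposite side with quantile normalization. Each of these 3 single calls was 0 to 1 without 1 library.

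With the replicate block, WT males had 14, KO males 2, and the single calls between genotypes in CL-treated females and between sexes in CL-treated KO mice became 0. The numbers did not pair the mice: same-numbered mice had a median correlation of deviations of -0.05 (range -0.69 to 0.61, 83 pairs), and others 0.01 (234 pairs).

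Log2 changes of WT females, uncalled in the main result, turned negative with each column as its own mouse (Mcm5 -0.18, Rrm2 -0.048, Mki67 -0.26, Top2a -0.33, Ccnb2 -0.053), with the first-table column (Mcm5 -0.35, Rrm2 -0.11, Mki67 -0.28, Top2a -0.41, Ccnb2 -0.12), with the first table alone (Mcm5 -0.88, Rrm2 -0.78, Mki67 -0.85, Top2a -1.14, Cdk1 -0.38, Ccnb2 -0.83, of which Top2a passed, adjusted p = 0.0412), with only the groups compared (Mcm5 -0.57, Rrm2 -0.88, Mki67 -1.08, Top2a -1.41, Cdk1 -0.77, Ccnb2 -1.04) and with the lymphocyte covariate (Mcm5 -0.31, Mki67 -0.17, Top2a -0.27). Those of KO females did so without the muscle libraries (Mcm5 -0.29, Cdk1 -0.14, Ccnb2 -0.16) and for Mcm5 with the lymphocyte covariate (-0.075). Without 1 library, WT females ranged from -0.009 to 0.55 for Mcm5, -0.20 to 0.69 for Mki67 and -0.29 to 0.82 for Top2a. KO females ranged from -0.43 to 0.48 for Mcm5, -0.057 to 0.62 for Rrm2, -0.026 to 0.76 for Top2a, -0.14 to 0.66 for Cdk1 and -0.23 to 0.46 for Ccnb2.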
